A study of Mus musculus with 3 samples.

Results

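The genes of cholesterol and fatty acid synthesis were examined in scratch-wounded mouse fibroblasts in primary culture, 5 h after adding the soluble micrograft (MG) and PD0325901, a MEK kinase inhibitor. The set holds 32 genes picked by name, 18 for the chain from acetyl-CoA to cholesterol, 8 for fatty acids and their acetyl-CoA supply, 5 for the regulators of both, and 1 for sterol transport. All 32 were found among the 43472 gene names of the deposited table, of which 20322 had reads. The 3 libraries are labelled as replicates 1, 2 and 3 of this single MG + PD0325901 condition. The cells came from tail tips of C57BL/6 mice, were scratched as a model of a wound, and were treated with MG made from mouse skin and diluted 1:10 in growth medium with serum. The number, age and sex of the animals, and whether each replicate came from its own animal, are not given in the sources used here. Samples without treatment or with MG alone were not analysed here. The values therefore describe the genes within the condition and between its replicates, and no effect of MG or of MEK inhibition was measured.

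The libraries held between 17244505 and 27037783 reads on genes. Values are normalized counts, that is, reads per gene divided by 1 size factor per library. All 8 fibroblast markers examined reached 10 normalized counts in each library, and they summed to 345263, 371184 and 511183 in replicates 1, 2 and 3. Replicate 2 stood apart most often, being more than 2-fold above both others in 5.2% and below both in 4.87% of the 13154 genes with a mean of 10 or more. The shares were 2.29% and 1.97% for replicate 1, and 1.28% and 2.3% for replicate 3. Among the fibroblast markers, Lum had 5073, 289 and 1164 normalized counts and Dcn 3661, 1723 and 3659. Of the 8 markers, Col1a1, Dcn and Lum were lowest in replicate 2, and the other 5 were lowest in replicate 1. Among adipocyte markers, Adipoq, Plin1, Cidec and Cidea lay between 0 and 3.47 normalized counts, while Fabp4 had 2185, 376 and 422 and Pparg 36.5, 83.1 and 20.1. The list summed to 2226, 460 and 442 in replicates 1, 2 and 3, and Pparg was highest in replicate 2. Summed markers of sebocytes, the lipid-secreting cells of skin, reached 21.7, 6.34 and 15.4 normalized counts, those of keratinocytes at most 2.37, of leukocytes 4.34, 8.46 and 62.8, and of endothelial cells at most 13.9. The part of these markers in the differences between replicates was not tested. In such bulk libraries, fewer cells of a type and less RNA per cell cannot be told apart.

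Cells build cholesterol from acetyl-CoA through mevalonate, the isoprenoids and squalene, and build fatty acids from the same acetyl-CoA through malonyl-CoA. Both routes are governed by the SREBP transcription factors, which are made as precursors bound to the membrane of the endoplasmic reticulum. When sterols are scarce, Scap escorts the precursors to the Golgi, where they are cleaved and released to the nucleus, and when sterols are plentiful, the Insig proteins hold Scap back. Fibroblasts use the products for membranes, and cells grown in serum can also take up lipid from the medium.

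All 32 genes were detected, and they differed between the replicates mostly in the same direction. Each reached 10 normalized counts in all 3 libraries, which held for 60.1% of genes with reads. Together they took 0.173%, 0.313% and 0.202% of the normalized counts of replicates 1, 2 and 3. Replicate 2 was the highest library for 25 of the 32 genes, against 40.6% of the 12204 genes that reached that minimum (detected genes). Replicate 1 was the lowest for 22 of them, against 34.5% of detected genes. The exceptions at the top were Fdps, Mvk, Pmvk, Scap, Srebf1 and Srebf2, highest in replicate 3 (27.9% of detected genes), and Ebp, highest in replicate 1 (31.5%). A further 8 genes were lowest in replicate 3, against 28.3%. Only Ebp and Srebf1 were lowest in replicate 2, a position that 37.3% of detected genes held.

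The size of this difference was taken as the log2 ratio of a replicate to the mean of the other replicates, on log2(normalized count + 1). For replicate 2 the median over the 32 genes was 0.53, against 0.03 over all detected genes. The quartiles were 0.254 and 0.794 for the 32 genes, and -0.353 and 0.394 for all detected genes. In replicate 1 the median was -0.45 against -0.03, and in replicate 3 it was -0.07 against 0. The genes were read from the same 3 libraries, so their shared direction is a difference between these libraries, seen many times, and not 32 separate observations.

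**Figure D1:**
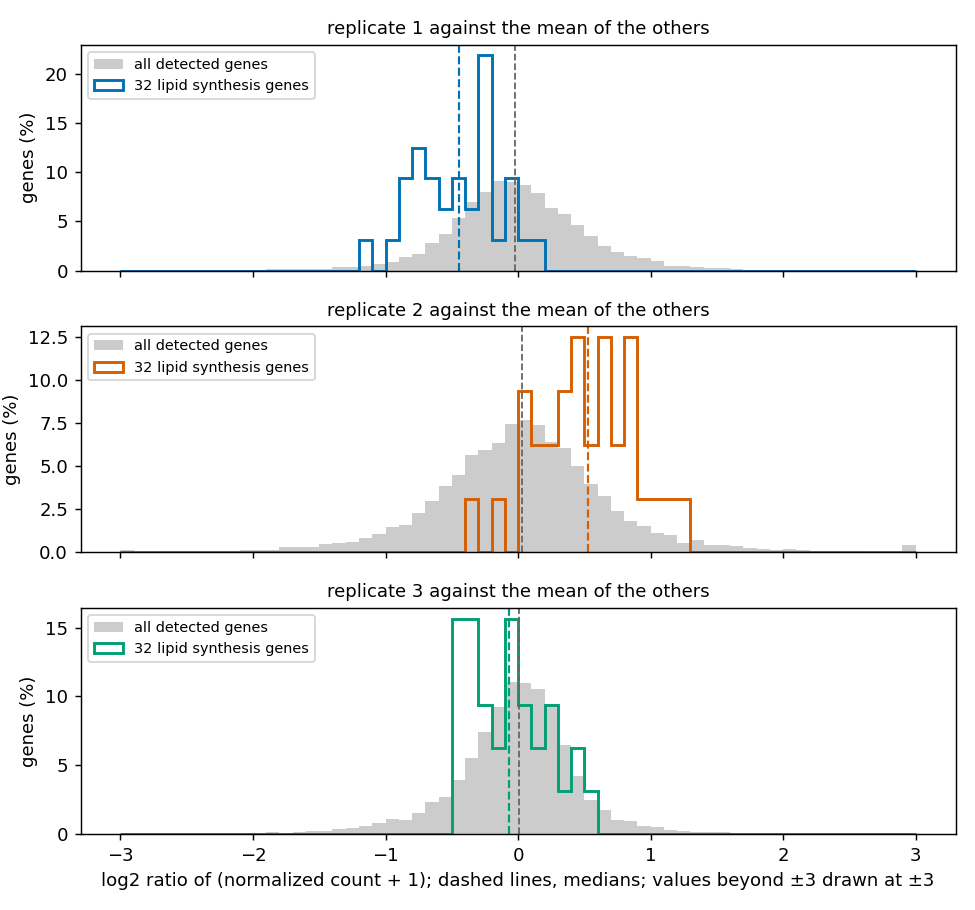
Distribution of the log2 ratio of each replicate to the mean of the others, as a percentage of genes, for all 12204 detected genes (grey) and for the 32 lipid synthesis genes (coloured outline), with medians dashed. The outline sits to the right of the grey distribution in replicate 2, with medians of 0.53 and 0.03, and to its left in replicate 1, with medians of -0.45 and -0.03.

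Pairs of libraries were compared gene by gene with a two-sided exact binomial test on recovered reads, adjusted over all genes tested by the Benjamini-Hochberg method. The test covers counting error only, so a call separates these libraries and not conditions or cultures. Of the 32 genes, 28 were called higher in replicate 2 than in replicate 1, against 35.7% of the 14771 genes tested, and only Ebp was called lower, against 32.7%. Between replicates 2 and 3, 22 were called lower in replicate 3, against 32%, and Fdps and Srebf1 were called higher, against 30%. Replicate 3 was called higher than replicate 1 for 19 genes, against 26.1%, and lower for Cyp51 and Fads1, against 25.1%. The 22 genes lower in replicate 3 were the ones called higher in replicate 2 than in both others, a pattern seen in 25.1% of all genes tested in both pairs. Genes with more reads are called more readily. The share for this pattern was therefore also taken among genes averaging 100 normalized counts or more, where it was 29.3%. The shares given for each pair of libraries include genes with fewer reads. With a difference of more than 2-fold also asked for, 6 genes remained between replicates 1 and 2, 0 between 1 and 3, and 1 between 2 and 3, against 20.1%, 8.9% and 16.3% of genes tested.

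The differences of the 32 genes were mostly of moderate size. Acly, Fads2, Fasn, Hsd17b7, Nsdhl and Scd2 spanned more than 2-fold from lowest to highest library, that is 6 of 32, against 21.6% of detected genes. A span of more than 1.5-fold was found for 20 of 32, against 48.5%. Scd2 alone was more than 2-fold above both other libraries in replicate 2, as were 5.2% of genes. At a limit of 1.5-fold, 9 genes were above both others in replicate 2, namely Acly, Dhcr7, Elovl6, Fads2, Insig2, Nsdhl, Scd1, Scd2 and Tm7sf2, against 11.8%. Fasn, Hsd17b7, Lss, Pmvk and Srebf2 were below both others in replicate 1 by that limit, against 5.35%. The median SD of log2 values between replicates was 0.38 for the 32 genes and 0.30 for all detected genes. Without replicate 2, it was 0.17 for the 32 genes and 0.20 for all detected genes, and a span of more than 2-fold was found for 0 of the 32 and for 6.06% of detected genes. Without replicate 1, it was 0.34 and 0.26, and 1 of the 32 and 12.7% of detected genes spanned more than 2-fold.

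**Figure D2:**
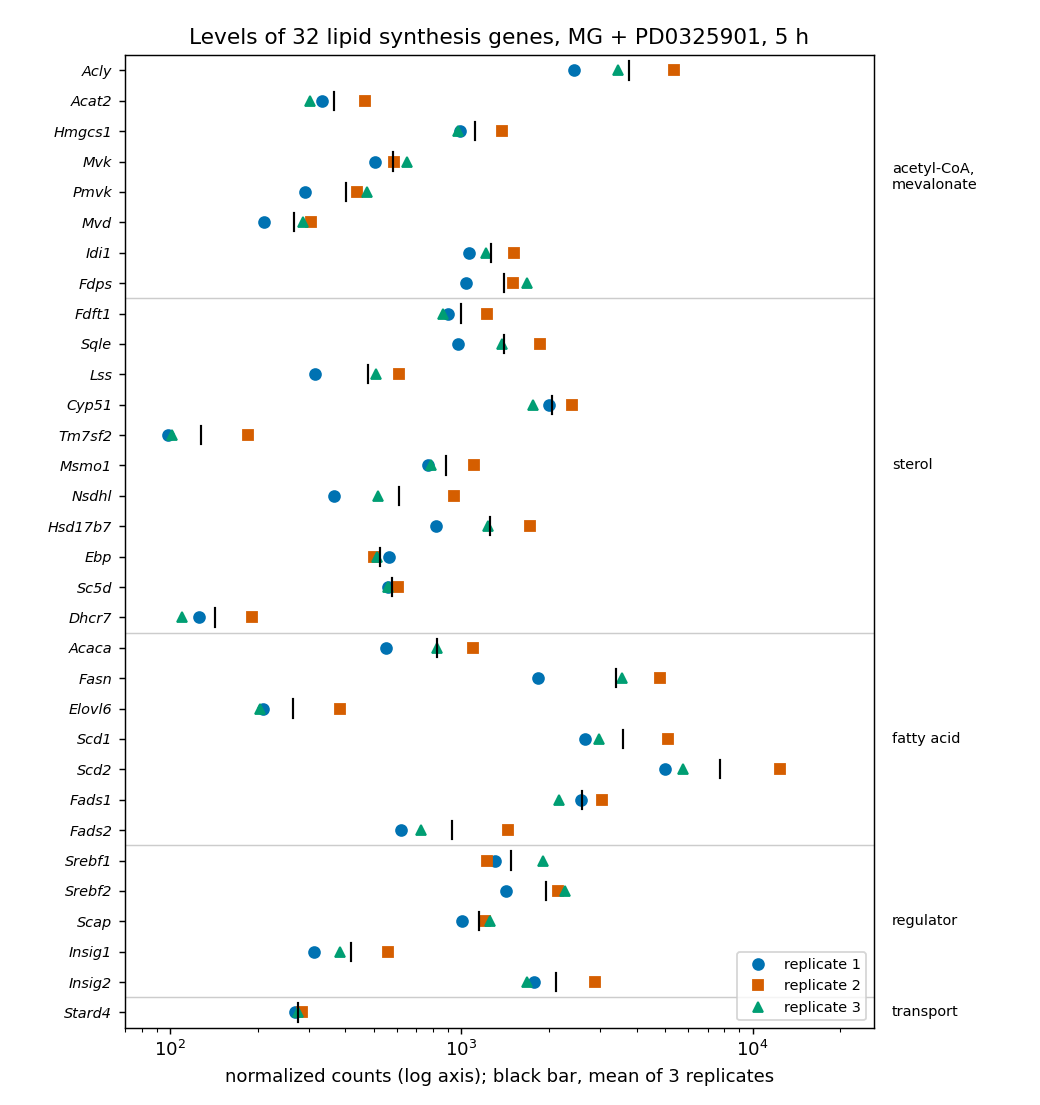
Normalized counts of the 32 genes in replicates 1 (circles), 2 (squares) and 3 (triangles) on a log axis, with the mean as a black bar, grouped by role. The squares lie furthest right for 25 genes, and the points of Stard4, Sc5d and Ebp nearly coincide.

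Acly and the 7 genes of the fatty acid branch included the highest levels and had a median SD of log2 values of 0.54, against 0.31 in the cholesterol chain and 0.37 in the regulators. Acly, which makes cytosolic acetyl-CoA from citrate for both branches, had 2437, 5387 and 3459 normalized counts. Fasn, the synthase that assembles palmitate, had 1828, 4790 and 3549, so replicate 1 was the lowest and replicates 2 and 3 lay closer together. Acaca, the carboxylase that makes malonyl-CoA, had 553, 1101 and 826. In replicate 2, Acly was 2.21-fold (95% counting interval 2.12 to 2.31), Fasn 2.62-fold (2.50 to 2.75) and Acaca 1.99-fold (1.81 to 2.19) above replicate 1. These 3 successive enzymes had the same order of libraries, replicate 1 below replicate 3 below replicate 2. This order was not particular to them, as Scd1, Scd2, Fads2, Idi1, Mvd and Insig1, among others of the set, had it too. Its share over all detected genes was not taken.

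The desaturases, which place double bonds in fatty acids, differed from Fasn in how far replicate 3 lay from replicate 1. Scd2, a stearoyl-CoA desaturase, reached 5000, 12436 and 5747 normalized counts, the highest level of the set. Its paralog Scd1 had 2659, 5118 and 2961. Fads2, which desaturates polyunsaturated fatty acids in a series with Fads1, had 620, 1445 and 730. For these 3 genes replicates 1 and 3 lay near each other and replicate 2 stood above both. Replicate 3 exceeded replicate 1 by 1.15-fold for Scd2, 1.11-fold for Scd1 and 1.18-fold for Fads2, against 1.94-fold for Fasn. Elovl6, which elongates palmitate, followed the desaturases with 209, 382 and 204 normalized counts, although at a far lower level. Fads1 moved least in this branch, with 2582, 3030 and 2168. As a result the ratio of Fads1 to Fads2 counts was 4.17, 2.10 and 2.97 in replicates 1, 2 and 3, and the ratio of Scd2 to Scd1 was 1.88, 2.43 and 1.94. All 8 genes from Acly to Fads2 were called higher in replicate 2 than in each of the other libraries.

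In the mevalonate steps, levels spanned a narrower range and replicate 3 often matched or passed replicate 2. Hmgcs1, the synthase of HMG-CoA, had 986, 1378 and 978 normalized counts, and Acat2, the thiolase before it, 332, 466 and 302. For both, replicate 2 was called above the other libraries, which were not separated. Mvk, Pmvk and Mvd, which phosphorylate and decarboxylate mevalonate, had 505, 587 and 653, then 290, 440 and 476, then 211, 304 and 287. Each of them was lowest in replicate 1, and the exact binomial test with Benjamini-Hochberg adjustment did not separate replicates 2 and 3 for any of them (adjusted p = 0.086, 0.29 and 0.57). Idi1, the isomerase of isopentenyl diphosphate, had 1064, 1521 and 1211, and Fdps, which joins the isoprenoid units to farnesyl diphosphate, 1035, 1506 and 1674. Fdps was the only gene of the chain called higher in replicate 3 than in replicate 2, by 1.11-fold (1.04 to 1.19), and the call was lost with libraries scaled to equal totals (exact binomial test, adjusted p = 0.39).

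The sterol steps held both the strongest and the weakest differences of the cholesterol chain. Nsdhl, a dehydrogenase of the demethylation steps, had 367, 945 and 516 normalized counts, a 2.57-fold range. Hsd17b7, the ketoreductase of the same steps, had 818, 1716 and 1239, and Sqle, the squalene epoxidase, 973, 1864 and 1378. Lss, which closes the rings of lanosterol, had 315, 611 and 511. These 4 genes shared the order of libraries of Acly, Fasn and Acaca, as did other genes of the set, among them Msmo1 and Tm7sf2.

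In a further 6 sterol genes, replicates 1 and 3 lay close and replicate 2 was higher. Fdft1, the squalene synthase, had 897, 1228 and 862 normalized counts, Cyp51, a demethylase of lanosterol, 1994, 2403 and 1761, and Msmo1, a methyl sterol oxidase, 769, 1102 and 787. Dhcr7 and Tm7sf2, sterol reductases, were the lowest genes of the set, with 126, 192 and 110 and with 98.1, 185 and 102. Cyp51 was called lower in replicate 3 than in replicate 1, by a ratio of 0.883 (0.827 to 0.943). In replicate 3 Tm7sf2 rested on 86 reads, with a counting error of 10.8%. Replicate 2 was nonetheless called above both others for each of these 5 genes. The sixth, Sc5d, a sterol desaturase, had 561, 605 and 562, a 1.08-fold range in which no pair of libraries was separated, although replicates 2 and 3 were with equal totals (exact binomial test, adjusted p = 0.021). Ebp, the sterol isomerase, had 564, 500 and 514, and replicate 2 was 0.888 of replicate 1 (0.797 to 0.989). By the exact binomial test with Benjamini-Hochberg adjustment this call was marginal (adjusted p = 0.045), and it was lost with libraries scaled to equal totals (adjusted p = 0.13) and with no minimum of reads (adjusted p = 0.059).

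The regulators did not share a single pattern. Srebf1 had 1306, 1222 and 1911 normalized counts, and Srebf2 1420, 2149 and 2276. Srebf1 was highest in replicate 3, and its log2 ratio of replicate 2 to the others, -0.37, was the lowest of the 32 genes. Its deposited values do not separate the transcripts of SREBP-1a and SREBP-1c. The ratio of Srebf2 to Srebf1 was 1.09, 1.76 and 1.19 in counts. Per kb of all annotated exons it was 0.853, 1.38 and 0.934, so by this length Srebf2 was below Srebf1 in replicates 1 and 3. The ratio depends on the length used, and it was not taken with the longest transcript. Scap had 1009, 1203 and 1250, with replicates 2 and 3 not separated.

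The Insig genes followed replicate 2 instead. Insig1, itself a known target of the SREBP factors, had 313, 561 and 382 normalized counts, and Insig2 had 1781, 2874 and 1681. Insig1 was 1.79-fold (1.58 to 2.03) and Insig2 1.61-fold (1.53 to 1.70) higher in replicate 2 than in replicate 1. Insig2 exceeded Insig1 by 5.68, 5.12 and 4.40 times in counts. Stard4, a carrier of cholesterol between membranes, was the steadiest gene of the set, with 268, 284 and 276 normalized counts and no pair of libraries separated.

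Levels of different genes were compared after division by the length of all annotated exons. Scd2 stood first with 1414 ± 749 normalized counts per kb (SD, n = 3), followed by Scd1 with 732 ± 274, Acly with 712 ± 284, Insig2 with 608 ± 191, Fads1 with 539 ± 89.6 and Cyp51 with 465 ± 73.6. Dhcr7 stood last with 24.5 ± 7.43 per kb, below Tm7sf2 with 29.2 ± 11.2 and Elovl6 with 41.2 ± 15.7. Of the 31 pairs of neighbours in this order, 30 had overlapping ranges over the 3 libraries, the exception being Sc5d above Stard4. Read within each library, the first gene was the higher in all 3 for Scd2 and Scd1, Fads1 and Cyp51, and Cyp51 and Idi1. The same held for Hmgcs1 and Fdft1, Acaca and Lss, Elovl6 and Tm7sf2, and Tm7sf2 and Dhcr7. The remaining neighbours changed order between libraries, so their order is not fixed by these data. Against detected genes with a length, 26 of the 32 lay above the median level per kb, and Scd2, at percentile 94, was the only one in the upper 10%. With the longest transcript as length, 5 genes moved by more than 3 ranks. Dhcr7 then stood at rank 30, above Elovl6 at 31 and Tm7sf2 at 32, so the order of these 3 genes depended on the length used. Without division by length, 12 genes moved by more than 3 ranks, and Dhcr7 stood at rank 31, above Tm7sf2 at 32.

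**Figure D3:**
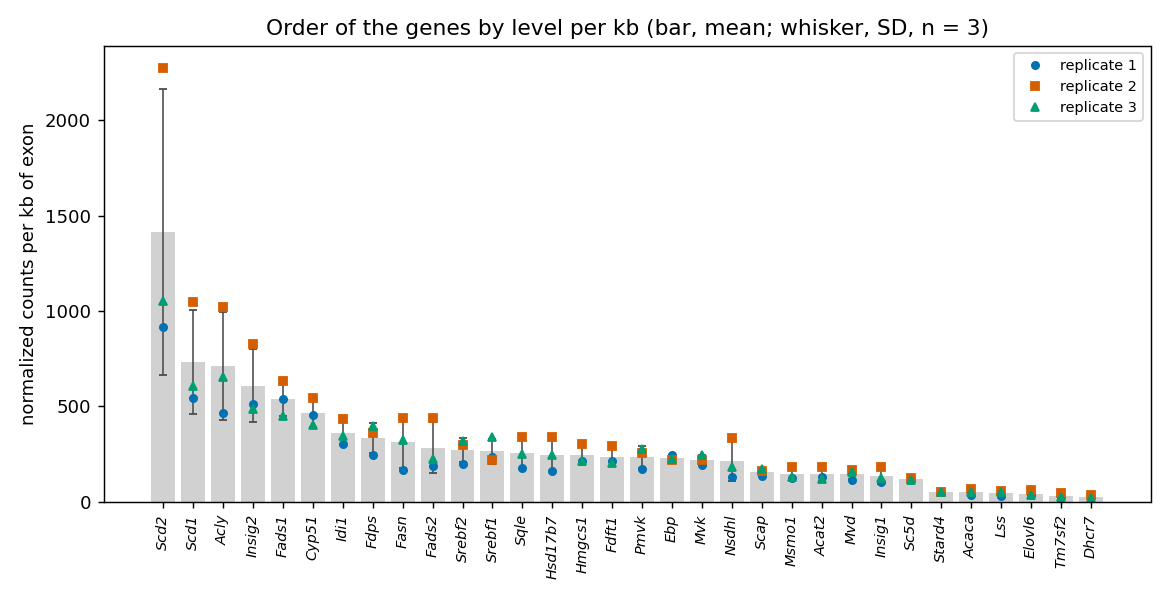
Normalized counts per kb of exon for the 32 genes in descending order of the mean (bars, mean; whiskers, SD of 3 replicates; points, single libraries). Scd2 leads with 1414 ± 749 per kb, and most neighbours overlap.

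Transcripts of relatives of the same enzymes were also read. Acacb, the mitochondrial carboxylase, had 17.4, 26.1 and 21.3 normalized counts, and Acaca exceeded it 18.0, 23.8 and 21.8 times per kb of exon. Scd3 and Scd4 stayed at or below 7.11 in every library, and Idi2 at or below 2.37. Of the other elongases, Elovl1 had 2092, 1703 and 2797 and Elovl5 1236, 1163 and 1070, both above Elovl6 in counts and per kb in every library. Elovl4 had 25.2, 16.2 and 9.48, Elovl3 at most 5.21, and Elovl2 no read. Elovl7 had 129, 46.5 and 183 normalized counts and was more than 2-fold lower in replicate 2 than in both others. Fads3 had 5069, 4836 and 6901, above Fads1 and Fads2 in every library and was lowest in replicate 2. Acat1, the mitochondrial thiolase, had 900, 1155 and 941 against 332, 466 and 302 for Acat2, and Acat3, beside Acat2 on chromosome 17, had 26.9, 12.7 and 14.2.

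Beyond the 32 genes, a wider list of the same pathways was mixed in direction. Of 26 genes of sterol handling, 25 could be tested in both pairs, and replicate 2 was called above both other libraries for 5 and below both for 6. Among the 29 genes of fatty acid supply and use found in the table, 23 were tested in both pairs, with 6 above and 5 below. Over all genes tested the shares were 25.1% above and 21.5% below. Abcg1, a sterol exporter, had 117, 32.4 and 132 normalized counts and was more than 2-fold lower in replicate 2 than in both others. It does not stand for sterol export as a whole, as another exporter of the list was called higher in replicate 2 than in both others. Gpam, which starts glycerolipid synthesis, had 46.9, 156 and 151 and was more than 2-fold lower in replicate 1.

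Promoter windows were then searched for 4 short motifs, as a description of the genes. Whether a motif has a part in the differences between libraries was not tested. RefSeq windows of 300 bases on GRCm38.p6, from 250 bases before each start to 50 after it, were at hand for 25 of the 32 genes, that is all but Fdps, Fdft1, Sqle, Scd1, Scd2, Fads1 and Stard4. Both strands were searched, and a gene with several starts counted once. The element bound by SREBP was written as TCACNCCAC. The NF-Y box was written as CCAAT, which reads ATTGG on the other strand. The GC box of Sp1 was written as GGGCGG and the E-box as CACGTG. A match is a description of the letters and not a shown binding site. Nor does a missing match show that an element is absent, since only these letters were searched. CCAAT was found for 20 of the 25 genes (80%), against 43% of 9095 detected genes and 41.1% of all 27025 genes with a window. At least 2 copies in a single window were found for 11 of the 25 genes (44%), against 16.9% of detected genes and 13.3% of all genes with a window. GGGCGG was found for 84% of the 25 genes, against 70.8% of detected genes, and CACGTG for 20% against 12%. TCACNCCAC was found for Hmgcs1 alone, that is 1 of 25 or 4% against 1.45%. The median GC content of the windows was 62.3% for the 25 genes and 61.3% for detected genes.

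**Figure D4:**
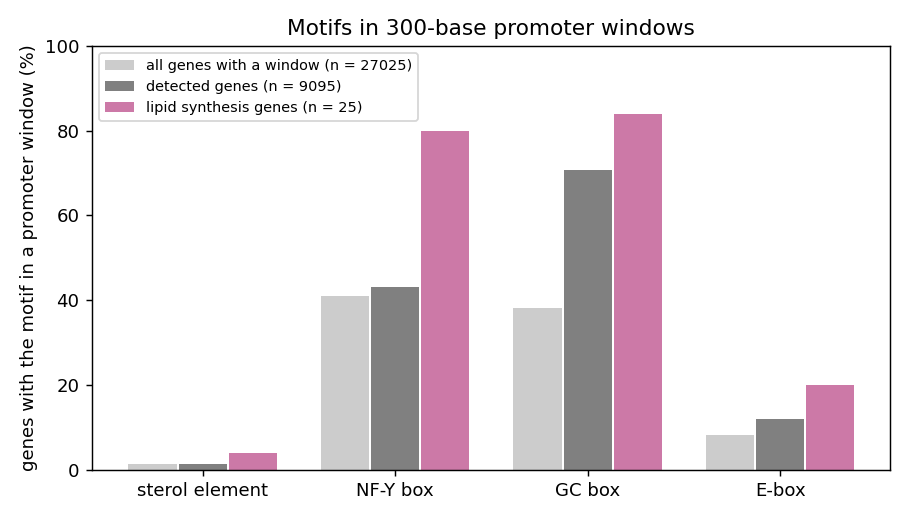
Percentage of genes with each motif in a promoter window, for all 27025 genes with a window (light grey), the 9095 detected genes (dark grey) and 25 of the lipid synthesis genes (pink). The NF-Y box stands at 80% in the lipid synthesis genes and at 43% in detected genes.

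The ratio between libraries was set against the CCAAT motif only. For the 20 genes with CCAAT the log2 ratio of replicate 2 had a median of 0.50 (from -0.37 to 1.12), and the 5 without it, Acat2, Acaca, Elovl6, Fads2 and Scap, had 0.70 (from 0.10 to 1.10). The 200 bases before the start are given below for 6 genes, with the NF-Y box on either strand, the SREBP element and the E-box in capitals. Counted copies outside these 200 bases are not shown, such as the only NF-Y box of Insig1, at -216, and those of Hmgcs1 at -237 and 11. Hmgcs1 is shown for its SREBP element, Insig1 for its E-box, Nsdhl, Hsd17b7 and Fasn as genes with a more than 2-fold range, and Ebp as a gene that was lowest in replicate 2.
Hmgcs1, chr13:119690151-119690350, plus strand: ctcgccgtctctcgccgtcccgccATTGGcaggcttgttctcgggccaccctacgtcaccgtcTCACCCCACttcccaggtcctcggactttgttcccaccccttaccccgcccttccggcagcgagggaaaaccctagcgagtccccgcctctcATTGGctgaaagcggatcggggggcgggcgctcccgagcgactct
Insig1, chr5:28071212-28071411, plus strand: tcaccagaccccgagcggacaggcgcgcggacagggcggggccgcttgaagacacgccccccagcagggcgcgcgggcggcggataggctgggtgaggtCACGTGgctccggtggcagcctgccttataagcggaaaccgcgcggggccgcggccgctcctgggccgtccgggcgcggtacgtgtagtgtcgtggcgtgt
Nsdhl, chrX:72918321-72918520, plus strand: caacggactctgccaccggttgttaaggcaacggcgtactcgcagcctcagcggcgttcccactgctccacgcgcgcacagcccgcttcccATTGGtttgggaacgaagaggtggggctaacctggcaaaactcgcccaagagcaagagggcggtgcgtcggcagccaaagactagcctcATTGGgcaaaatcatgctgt
Hsd17b7, chr1:169969206-169969405, minus strand: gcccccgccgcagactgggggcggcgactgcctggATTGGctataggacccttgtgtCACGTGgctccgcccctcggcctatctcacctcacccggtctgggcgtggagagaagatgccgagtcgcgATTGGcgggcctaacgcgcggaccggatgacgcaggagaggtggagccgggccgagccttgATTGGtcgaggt
Fasn, chr11:120824548-120824747, minus strand: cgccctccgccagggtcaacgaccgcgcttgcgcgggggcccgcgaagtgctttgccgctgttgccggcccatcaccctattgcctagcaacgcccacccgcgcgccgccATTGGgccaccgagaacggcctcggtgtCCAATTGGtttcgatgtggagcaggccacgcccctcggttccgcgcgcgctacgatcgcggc
Ebp, chrX:8193513-8193712, minus strand: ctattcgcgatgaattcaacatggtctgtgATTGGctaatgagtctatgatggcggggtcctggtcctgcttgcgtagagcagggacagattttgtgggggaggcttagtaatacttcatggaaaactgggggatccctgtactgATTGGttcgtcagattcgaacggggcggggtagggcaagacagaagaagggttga
Counted back from the start, the SREBP element of Hmgcs1 begins at -137, between ATTGG copies at -176 and -45. In Fasn, copies on opposite strands at -62 and -59 overlap. Ebp, lowest in replicate 2, carries ATTGG at -170 and -55, and Nsdhl, with the largest range of the cholesterol chain, at -109 and -20. Within the searched 300 bases, Nsdhl also carries the NF-Y box after its start, at 9 and 35, and Ebp does not.

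For some genes the counts are uncertain because other genes share their sequence. Of the 50-base stretches of the longest transcript, 52.6% of Acaca also occur in the transcript of Gm5182, 45.9% of Acat2 in Acat3, 21.3% of Idi1, 11.7% of Fdps and 10.9% of Fdft1 in other genes, and the authors kept unique reads only. For Scd1 and Scd2 the shares were 4.66% and 4.01%. Exons of Fdft1 overlap 774 bases of Ctsb on the opposite strand, with Ctsb at 15341, 17650 and 17664 normalized counts, and whether reads were counted by strand is not given. Exons of Tm7sf2 overlap 532 bases of Vps51 on the same strand.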

How the data were processed

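RNA was sequenced by the authors as stranded mRNA libraries with 50 bp single-end reads. Per the labels and the methods, reads were aligned to mm10 with TopHat 2.0.13, with unique reads kept, and counted per gene with HTSeq 0.5.3p3. The deposited signal holds normalized counts, for which the authors divided read counts by a DESeq size factor per library. The annotation, the strand setting and the libraries behind the size factors are not given in the sources used here. A further 3 columns were not used, as they match no sample. All values above 0 (100% in each library, within 0.01 read) were whole numbers of reads after division by the value of a single read, which gave back the reads. Size factors were 1.15, 1.42 and 0.844 in replicates 1, 2 and 3, and 3 reads, the limit for a gene at 0, corresponded to 2.61, 2.11 and 3.56 normalized counts. Binomial p-values were double the smaller tail, for genes whose pair summed to 10 reads or more, at a threshold of 0.05. Intervals of ratios were exact (Clopper-Pearson, 95%). Intervals and limits hold only counting error, since molecular identifiers were not used, and the replicates may differ technically. Lengths, overlaps and shared 50-base stretches came from GENCODE M21 on GRCm38 and promoter windows from RefSeq on GRCm38.p6. Of 43472 gene names, 39457 matched GENCODE. Of the 58 further pathway genes, 55 were found by name. TMM factors came from edgeR 4.0.16 (R 4.3.3), and Python 3.11.15 with scipy 1.17.1, numpy 2.4.6 and pandas 2.3.3 was used otherwise. Simulated data with counting error only were used to test the binomial calls and, at 1.5-fold, the rule for a replicate apart. The other steps were not tested in this way. The members, the gene lists and the tests were chosen with earlier results of these data known. All 32 members are named. Of the further pathway genes, those of the same enzyme families and those with 1 replicate more than 2-fold from both others, given a mean of 10 or more, are named. This rule was not applied to the cell type markers, of which only some are named. The 6 promoters shown were picked after their motifs were seen. Positions count from the start, the base before it being -1 and the base at it 1. Alternatives were other pseudocounts, minimums, fold limits, scalings, lengths and motifs, and each replicate left out.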

Additional observations from a re-analysis of the deposited data

How the results depend on the processing

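With each replicate left out, the number of genes with a more than 2-fold range lay between 0 (without replicate 2) and 6 (without replicate 3), with 1 without replicate 1. The median SD of log2 values lay between 0.17 without replicate 2 and 0.42 without replicate 3. The median log2 ratio of replicate 3 lay between -0.46 without replicate 1 and 0.22 without replicate 2, so its direction depended on the library left out. At a limit of 1.5-fold, 20 genes had a range above the limit, 5 stood apart in replicate 1 and 9 in replicate 2. When calls also had to exceed 2-fold, 6, 0 and 1 genes were called between replicates 1 and 2, 1 and 3, and 2 and 3, by construction. With libraries scaled to equal totals, 2 genes were more than 2-fold apart in replicate 2, 1 was lowest in replicate 2 and 13 in replicate 3. No gene changed the sign of its log2 ratio in replicate 2 with equal totals or TMM factors, and 30 of 32 stayed above 0. Equal totals also ended the calls of Idi1, Fads2 and Insig1 between replicates 1 and 3 (exact binomial test, adjusted p = 0.078, 0.059 and 0.088) and made a call of Insig2 (adjusted p = 0.0083), and TMM factors made a call of Srebf2 between replicates 2 and 3 (adjusted p = 0.045). A longer form of the sterol motif was found in 0 of the 25 promoters. The values over all detected genes with a replicate left out, the comparison with genes of a mean of at least 100, the count of genes by highest and lowest library under other scalings and the shorter promoter window were chosen after seeing the data. Depth limited Tm7sf2 and Dhcr7, with 86 and 93 reads in replicate 3. No paired analysis was possible because the libraries form a single group.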
